A study of Mus musculus with 8 samples.

Results

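The 10 genes described here carry arginine into the cell, split it, turn it into nitric oxide and make or break down polyamines: Slc7a2, Arg1, Arg2, Ass1, Asl, Nos2, Gch1, Odc1, Oat and Sat1. They were taken from the array's annotation as every probe set that names 1 of these symbols and no other gene. They are 10 of the 18193 genes with such a probe set and are measured by 17 probe sets. Of them, 9 passed the filter on low values, which kept 12540 genes. Ass1 did not. RNA came from mouse peritoneal macrophages elicited with thioglycollate, a broth that irritates the peritoneum and recruits these cells. The cells were wild-type or labelled Zc3h12a knockout, and each genotype was stimulated with 100 ng/ml of lipopolysaccharide (LPS), a bacterial cell wall component, for 0, 1, 2 or 4 h. The 8 samples gave 8 Affymetrix arrays, 1 for each genotype and time. The age, sex and strain background of the mice, how many were pooled and how the knockout was made are not given in the sources used here.

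Macrophages take up arginine through cationic amino acid transporters, of which Slc7a2 encodes CAT2. Arginase (Arg1 in the cytosol, Arg2 in mitochondria) cleaves arginine to ornithine and urea, while the inducible nitric oxide synthase, encoded by Nos2, oxidises the same amino acid to nitric oxide and citrulline. Citrulline is turned back into arginine by argininosuccinate synthase (Ass1) and lyase (Asl). Gch1 encodes GTP cyclohydrolase, which starts the synthesis of tetrahydrobiopterin, the cofactor of nitric oxide synthase. Ornithine goes to putrescine and the longer polyamines through ornithine decarboxylase (Odc1), or towards proline and glutamate through ornithine aminotransferase (Oat). Sat1 acetylates spermidine and spermine for export and breakdown. High Nos2 is a textbook mark of macrophages activated by LPS and interferon, and high Arg1 of those activated by IL-4.

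All levels are the authors' RMA values on the log2 scale, so a difference of 1 is a doubling. With 1 array a group there are no replicates, and a difference at a single time has no error. Genotypes were compared over the 4 times and LPS times over both genotypes in 1 additive limma fit of all 12540 genes. Its standard errors (SE) measure how far the 8 arrays depart from a constant genotype difference. Its p-values are adjusted by the Benjamini-Hochberg method over all genes. How many cell preparations of each genotype the arrays came from is not given. A difference between preparations therefore cannot be told apart from one between genotypes. A gene was called at an adjusted p under 0.05. The background of an array is its highest bacterial control probe set, between 2.96 and 3.26. In bulk RNA, fewer cells of a type and less RNA per cell cannot be told apart.

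The array medians lay between 3.14 and 3.21 and the arrays correlated with each other at 0.933 to 0.988. The brighter Zc3h12a probe set lay between 6.12 and 8.87 on the wild-type arrays and between 6.73 and 8.75 on the knockout-labelled ones, a genotype difference of 0.02 (SE 0.16, adjusted p = 0.941). Its position relative to the deleted part is not known here, so it does not check the labels. Of 10 macrophage markers, 9 were above background, and Cd163 was not. Between genotypes, 2 of the 9 were called higher and 1 lower in the labelled knockout. The list means were 9.62 to 10.07 on wild-type and 9.73 to 10.09 on knockout-labelled arrays. Over all genes tested, 4.75% were called higher and 8.72% lower, the shares to set beside each list here. Of 12 resident peritoneal macrophage markers, 10 were higher and 0 lower in the labelled knockout, with list means of 6.11 to 6.54 on wild-type and 7.94 to 8.27 on knockout-labelled arrays. Of 9 measured mesothelial and stromal markers, 7 were lower and 0 higher (5.22 to 5.45 against 4.28 to 4.62, with Krt19 and Msln at background). Of 5 measured neutrophil markers, 2 were higher (4.25 to 4.48 against 4.78 to 5.17, with Cxcr2, Elane and Ltf at background). The B cell list had 1 higher and 1 lower of 4, the T and NK cell list 1 higher of 4, and the eosinophil and mast cell list 1 lower of 4. Ccr3, Fcer1a, Il5ra, Mcpt4 and Prg2 of the last list, Pax5 of the B cell list, and Cd3g and Cd8a of the T cell list were at background. RNA integrity and amplification can be read from the gap between the 3' and 5' probe sets for Actb, which was 2.16 to 2.64 on wild-type and 2.30 to 3.11 on knockout-labelled arrays, higher in the labelled knockout at each time. The same gap for Gapdh was 2.98 to 3.16 on wild-type and 2.90 to 3.31 on knockout-labelled arrays, higher in the labelled knockout at 0 h and lower at 1, 2 and 4 h. The part of these in the genotype differences below was not tested.

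**Figure D1:**
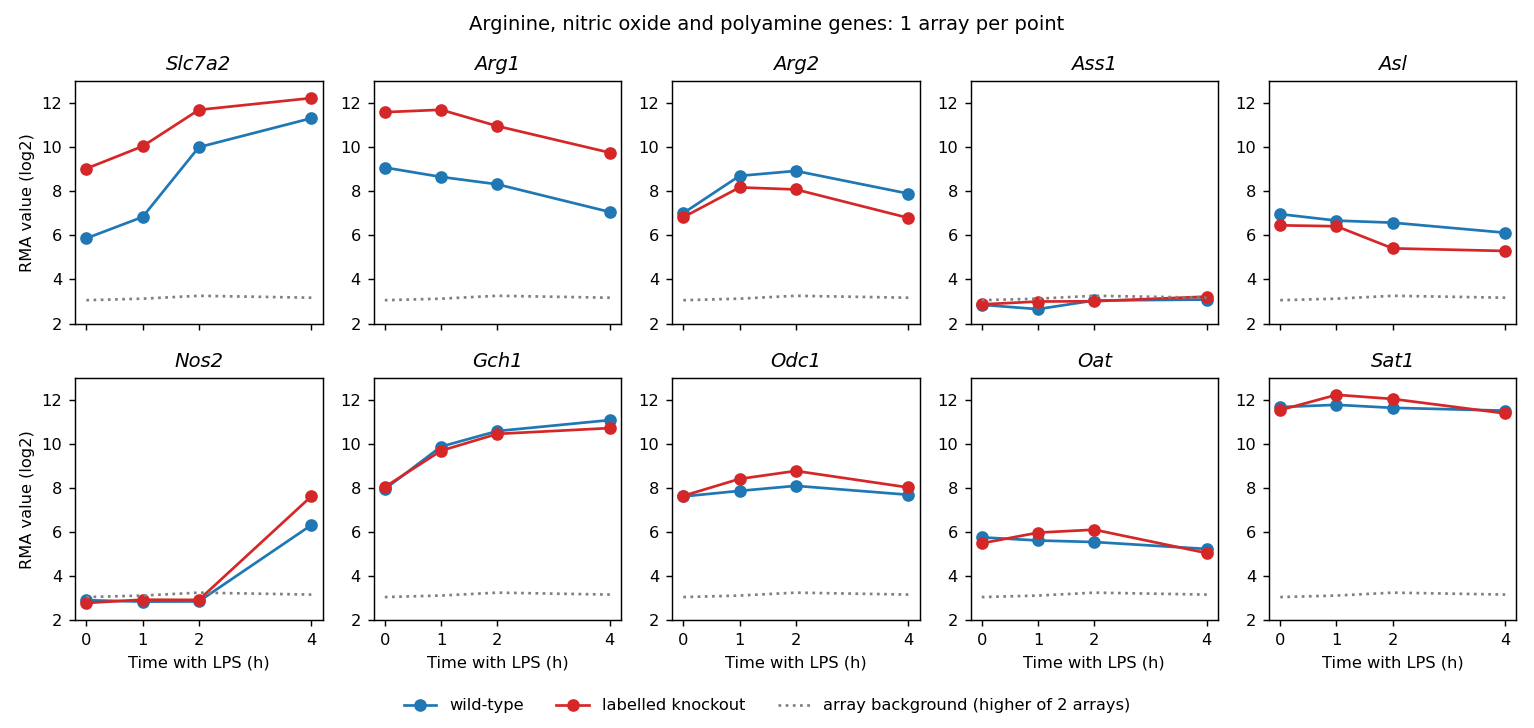
RMA value (log2) of the 10 genes against hours with LPS, 1 point per array, for wild-type and labelled knockout, on the probe set of highest mean; the dotted line marks background, the higher of the 2 arrays of each time. Arg1 and Slc7a2 lay higher in the labelled knockout at every time, and Nos2 left background at 4 h.

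Slc7a2, the transporter, was raised by LPS, and on the arrays without LPS it was already higher in the labelled knockout. In wild-type cells its brightest probe set read 5.87, 6.83, 9.999 and 11.31 at 0, 1, 2 and 4 h. The labelled knockout gave 9.03, 10.04, 11.69 and 12.23. The unstimulated knockout-labelled cells thus lay above wild-type cells after 1 h and below them after 2 h. LPS raised Slc7a2 by 3.40 at 2 h (SE 0.56, adjusted p = 0.0043), which is 10.6-fold, and by 4.32 at 4 h (SE 0.56, adjusted p = 0.00124), which is 20.0-fold. At 1 h the difference of 0.99 (SE 0.56, adjusted p = 0.339) was not called. The step from 1 h to 2 h was 2.41 (SE 0.56, adjusted p = 0.0276). It was lost with a trended, robust variance (adjusted p = 0.123) and without wild-type 1 h (0.129), wild-type 2 h (0.138) or knockout-labelled 2 h (0.0816). The calls at 2 h and 4 h held in all 16 alternative analyses.

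The genotype difference of Slc7a2 over the 4 times was 2.24 (SE 0.40, adjusted p = 0.0184), or 4.74-fold. Time by time it was 3.16, 3.21, 1.69 and 0.91, that is 8.95-fold at 0 h, 9.23-fold at 1 h, 3.23-fold at 2 h and 1.88-fold at 4 h. On this probe set the gap was smaller on the later arrays, where both genotypes were high. The interaction of genotype with LPS was -1.22 (SE 0.86, adjusted p = 0.9996). That term sets 1, 2 and 4 h together against 0 h, so it cannot test a change among the LPS times. The genotype call was lost without either array of 0 h (1.94, adjusted p = 0.0740) and with a trended, robust variance (adjusted p = 0.0840).

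Which transcripts each Slc7a2 probe set reads is not known here. The other 3 probe sets are separate readings of the same gene. Their genotype differences were 2.30 (1436555_at, adjusted p = 0.0269), 2.22 (1426008_a_at, adjusted p = 0.0117) and 1.10 (1450703_at, adjusted p = 0.0781, not called). At 4 h of LPS the same probe sets stood 3.51, 4.97 and 1.95 above 0 h, with adjusted p-values of 0.00502, 0.000312 and 0.0132. At 0, 1, 2 and 4 h the gap between genotypes was 3.61, 3.22, 1.42 and 0.94 on 1436555_at. On 1426008_a_at it was 2.99, 3.05, 1.81 and 1.05, so both also had a smaller gap on the later arrays. On 1450703_at the gap ran the other way, with 0.55, 0.12, 1.78 and 1.96 (interaction 0.74, SE 0.73, adjusted p = 0.9998). This dimmest probe set was near background at 0 h and 1 h. It read 2.65 and 3.15 there in wild-type and 3.20 and 3.27 in knockout-labelled cells, which limits its early gaps. In wild-type cells it was below background at 0 h and 2 h, and it reached 5.86 after 4 h in knockout-labelled ones.

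**Figure D2:**
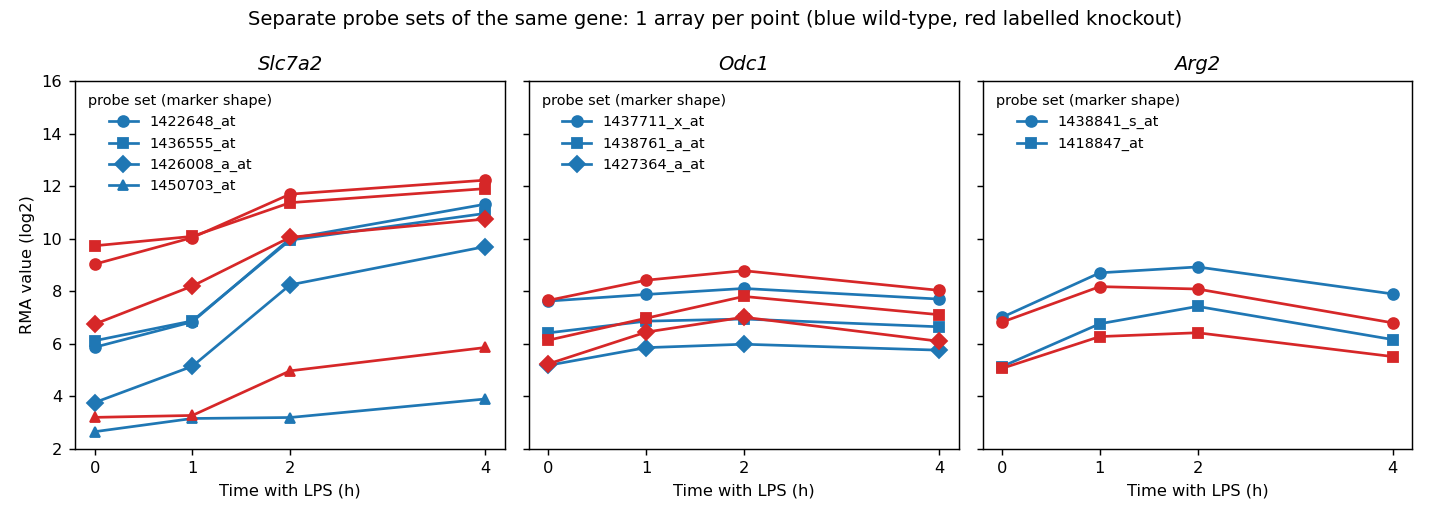
RMA value (log2) of each probe set of Slc7a2, Odc1 and Arg2 against hours with LPS, 1 point per array; colour gives the genotype and marker shape the probe set. The probe sets differed in level, and the 4 of Slc7a2 all read higher in the labelled knockout at each time.

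Arg1, the cytosolic arginase, was higher in the labelled knockout at every time and fell with LPS. Wild-type cells read 9.08, 8.65, 8.32 and 7.06 at 0, 1, 2 and 4 h. Knockout-labelled cells read 11.59, 11.70, 10.96 and 9.75. Every knockout-labelled array stood above every wild-type array, a pattern found for 3.20% of all genes. The genotype difference was 2.72 (SE 0.11, adjusted p = 9.2e-05), or 6.60-fold, and at single times 2.51, 3.05, 2.64 and 2.69. It was called in all 16 alternative analyses. These are not independent, since leaving out either array of a time gives the same genotype difference.

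LPS lowered Arg1 at 2 h by 0.70 (difference -0.70, SE 0.15, adjusted p = 0.0118) and at 4 h to -1.93 relative to 0 h (SE 0.15, adjusted p = 0.000155), a 3.80-fold fall. The difference at 1 h was -0.16 (SE 0.15, adjusted p = 0.564). Between 2 h and 4 h it fell by 1.23 (SE 0.15, adjusted p = 0.00276). The call at 2 h was lost without wild-type 0 h (adjusted p = 0.0940) or without knockout-labelled 2 h (adjusted p = 0.0789). The step from 1 h to 2 h, -0.54 (SE 0.15, adjusted p = 0.0488), was called in 5 of 16 alternatives. Its interaction of genotype with LPS was 0.28 (SE 0.24, adjusted p = 0.9996). Alternative activation is the IL-4 type of activation for which Arg1 is known. Of 12 measured markers of it, a list that does not hold Arg1, 6 were higher and 1 was lower in the labelled knockout. The list means were 6.56 to 6.74 on wild-type and 7.76 to 8.32 on knockout-labelled arrays. Over all genes tested, 4.75% were called higher and 8.72% lower. Whether this type of activation has a part in the Arg1 difference was not tested.

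Arg2, the mitochondrial arginase, took a different course. Its brighter probe set read 7.01, 8.70, 8.92 and 7.89 in wild-type cells, and 6.82, 8.17, 8.08 and 6.79 in the labelled knockout. It was highest at 1 h or 2 h and had dropped back by 4 h in both genotypes, close to its 0 h value in the labelled knockout. LPS raised it by 1.52 at 1 h (SE 0.22, adjusted p = 0.0088) and by 1.59 at 2 h (SE 0.22, adjusted p = 0.00215). It then fell by 1.16 from 2 h to 4 h (SE 0.22, adjusted p = 0.0135), and the difference of 0.43 between 4 h and 0 h was not called (adjusted p = 0.164).

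Arg2 was lower in the labelled knockout, opposite in sign to Arg1, with a difference of -0.66 (SE 0.15, adjusted p = 0.0401). The values at single times were -0.18, -0.53, -0.84 and -1.10, where those of the other probe set, 1418847_at, were -0.07, -0.49, -1.003 and -0.65. The interaction with LPS, which takes 1, 2 and 4 h together, was -0.64 (SE 0.28, adjusted p = 0.9996). It does not test a change among those times. The genotype call was kept in 8 of 16 alternatives. Among those that lost it were leaving out either array of 1 h (adjusted p = 0.0706), of 2 h (0.138) or of 4 h (0.108), and cyclic loess (0.0557). On the other Arg2 probe set, 1418847_at, the genotype difference was -0.55 (adjusted p = 0.0697), and the rise at 4 h was 0.74 (adjusted p = 0.0331). The 1 h rise was lost without wild-type 0 h (adjusted p = 0.0581), wild-type 1 h (0.0501) or knockout-labelled 1 h (0.0519). The fall from 2 h to 4 h was lost without wild-type 2 h (0.0862), knockout-labelled 2 h (0.0546) or knockout-labelled 4 h (0.0811).

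**Figure D3:**
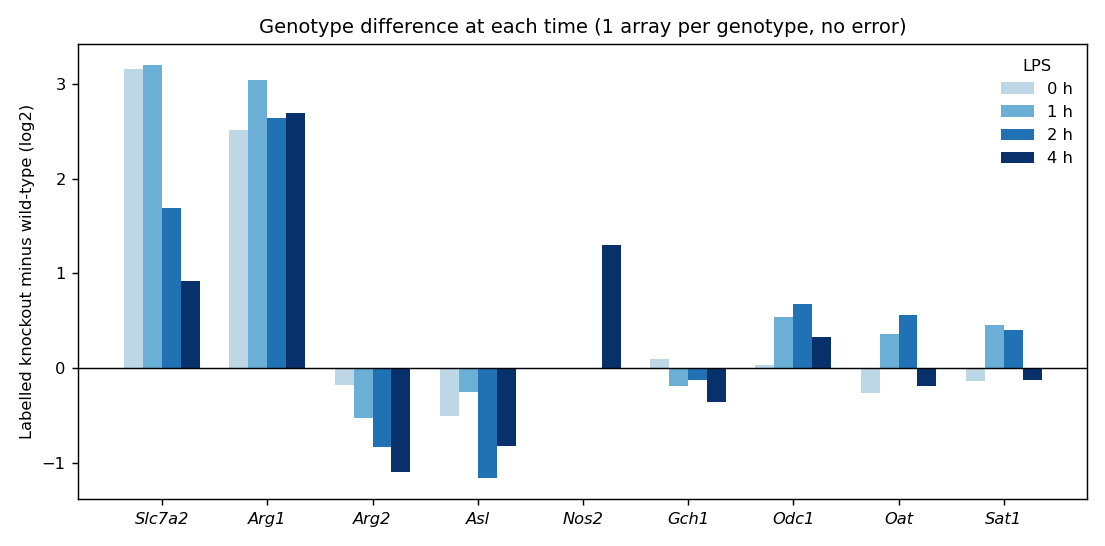
Labelled knockout minus wild-type (log2) at each time for 9 genes, 1 array per genotype and no error; bars are left out for Nos2 at 0, 1 and 2 h, where both arrays were at background. Slc7a2 and Arg1 were above 0 at all 4 times, and Arg2 and Asl below 0 at all 4 times.

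Of the enzymes that return citrulline to arginine, Asl fell with LPS and was lower in the labelled knockout, and the only probe set that names Ass1 alone was near background. Asl read 6.96, 6.67, 6.57 and 6.12 in wild-type cells and 6.45, 6.41, 5.41 and 5.29 in the labelled knockout. The genotypes overlapped, since wild-type cells at 4 h lay below knockout-labelled cells at 0 h. The genotype difference was -0.69 (SE 0.15, adjusted p = 0.0352). It was lost without either array of 0 h (adjusted p = 0.0977), of 2 h (0.0960) or of 4 h (0.118). LPS lowered Asl by 2 h (-0.72, SE 0.22, adjusted p = 0.0392) and 4 h (-1.003, SE 0.22, adjusted p = 0.0105).

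The 2 h call of Asl was lost in 7 alternatives, among them cyclic loess (adjusted p = 0.0913), centring on housekeeping genes (0.0807) and leaving out knockout-labelled 2 h (0.233). The others left out wild-type 0 h (0.103), wild-type 4 h (0.0648), knockout-labelled 0 h (0.198) or knockout-labelled 4 h (0.0648). The 4 h call was lost without knockout-labelled 0 h (0.0798) or knockout-labelled 4 h (0.0770). The single-symbol Ass1 probe set read 2.85, 2.65, 3.04 and 3.09 in wild-type cells and 2.87, 2.998, 3.01 and 3.22 in the labelled knockout. It was above background on the 4 h array of each genotype only, and was not tested. A brighter probe set that names Ass1 together with another gene was not used, so the low signal belongs to this probe set and is not a level of the gene.

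Nos2 was at background until 2 h and high at 4 h in both genotypes. Wild-type cells read 2.92, 2.85, 2.86 and 6.32, and knockout-labelled cells 2.79, 2.94, 2.93 and 7.63. The first 3 values of each genotype are not above background, so the rise has only a lower bound, set by each array's background. From 0 h to 4 h Nos2 rose at least 9.62-fold in wild-type and at least 25.4-fold in knockout-labelled cells, and at least 15.6-fold over both. From 2 h to 4 h it rose at least 13.4-fold over both. The fit called both steps (adjusted p = 0.000183 and 0.000799), but Nos2 passed the filter only through its 4 h arrays, so it had to differ and these p-values add no support. At 4 h the labelled knockout was 1.30 higher, or 2.47-fold, on 1 array each. The fitted genotype difference, 0.33 (SE 0.24, adjusted p = 0.377), averages this with 3 times at which neither genotype had signal above background.

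Gch1 was already raised at 1 h, when Nos2 was at background, and its genotype difference was not called. Its brighter probe set read 7.96, 9.88, 10.59 and 11.09 in wild-type cells and 8.05, 9.70, 10.46 and 10.72 in the labelled knockout. LPS raised it by 1.79 at 1 h (SE 0.14, adjusted p = 0.000722), by 2.52 at 2 h (SE 0.14, adjusted p = 8.4e-05) and by 2.90 at 4 h (SE 0.14, adjusted p = 2.7e-05), which is 7.47-fold. These calls held in all 16 alternatives. The step from 1 h to 2 h was 0.73 (SE 0.14, adjusted p = 0.0129) and was lost when any array of 1 h or 2 h was left out (adjusted p up to 0.0816). The genotype difference was -0.15 (SE 0.10, adjusted p = 0.347), and the largest gap at a single time on this probe set was -0.36, at 4 h. The other probe set, 1429692_s_at, stood 2.23 higher at 4 h than at 0 h (adjusted p = 8.1e-05), with a genotype difference of 0.16 (adjusted p = 0.374). Its gaps at 0, 1, 2 and 4 h were 0.48, 0.11, 0.09 and -0.04. Its step from 1 h to 2 h, 0.47, was not called (adjusted p = 0.0834).

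Among the polyamine enzymes, Odc1 rose with LPS at 2 h, while Oat and Sat1 passed no test. Odc1 read 7.62, 7.88, 8.10 and 7.70 in wild-type cells and 7.65, 8.42, 8.78 and 8.03 in the labelled knockout. Both genotypes were highest at 2 h. The rise at 2 h was 0.80 (SE 0.17, adjusted p = 0.0112), while 0.51 at 1 h (adjusted p = 0.125) and 0.23 at 4 h (adjusted p = 0.328) were not called. It was lost without knockout-labelled 0 h (adjusted p = 0.0706) or 2 h (0.0823). On this probe set, the brightest, the genotypes started 0.03 apart and differed by 0.54, 0.68 and 0.33 at 1, 2 and 4 h. Over the 4 times this gave 0.39 (SE 0.12, adjusted p = 0.0827), which was called only with a trended, robust variance (adjusted p = 0.0293). The interaction with LPS was 0.49 (SE 0.22, adjusted p = 0.9996). The other Odc1 probe sets stood 1.10 (1438761_a_at, adjusted p = 0.0167) and 1.29 (1427364_a_at, adjusted p = 0.00543) higher at 2 h. 1427364_a_at was also called at 4 h, with 0.72 (adjusted p = 0.0435). At 0, 1, 2 and 4 h the gap between genotypes was -0.28, 0.11, 0.86 and 0.46 on 1438761_a_at. On 1427364_a_at it was 0.05, 0.59, 1.03 and 0.34. Neither probe set was called for genotype (0.29, adjusted p = 0.343, and 0.50, adjusted p = 0.0986).

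Sat1 read 11.68, 11.78, 11.64 and 11.51 in wild-type cells and 11.54, 12.23, 12.05 and 11.39 in the labelled knockout. Oat read 5.77, 5.63, 5.55 and 5.24, and 5.50, 5.98, 6.11 and 5.05. In both genes the labelled knockout was higher at 1 h and 2 h and lower at 0 h and 4 h. The genotype differences were 0.15 for Sat1 (SE 0.13, adjusted p = 0.479) and 0.11 for Oat (SE 0.16, adjusted p = 0.654). At 4 h of LPS, Oat stood at -0.48 (SE 0.22, adjusted p = 0.128) and Sat1 at -0.16 (SE 0.19, adjusted p = 0.539) relative to 0 h.

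Gch1 and Odc1 are the genes raised by LPS whose promoters are in the RefSeq table used here (GRCm38.p6), which holds 5 of the 10. The bases before each gene's annotated start are shown to let the sequence next to 2 genes with different courses be compared, 5′ to 3′ on the gene's strand, with motif matches in capitals. Gch1 lies on the minus strand and its stretch is chr14:47189414-47189663. Odc1 lies on the plus strand and its stretch is chr12:17544623-17544807.
Gch1: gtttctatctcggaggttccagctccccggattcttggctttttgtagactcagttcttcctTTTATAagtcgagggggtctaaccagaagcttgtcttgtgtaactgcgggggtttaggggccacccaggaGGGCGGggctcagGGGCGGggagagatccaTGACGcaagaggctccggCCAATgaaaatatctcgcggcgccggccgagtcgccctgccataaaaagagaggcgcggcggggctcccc
Odc1: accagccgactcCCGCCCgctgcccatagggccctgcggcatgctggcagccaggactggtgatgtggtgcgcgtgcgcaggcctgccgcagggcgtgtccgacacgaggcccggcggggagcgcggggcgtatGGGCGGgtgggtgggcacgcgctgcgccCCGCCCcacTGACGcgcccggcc
The motifs searched on both strands were the E-box CACGTG, the CCAAT box CCAAT, the GC box GGGCGG, the TATA box TATAAA, the CRE half-site TGACG, the NF-kB motif GGANTTNCC, the GAS motif TTCNNNGAA and the AP-1 motif TGANTCA. Gch1 held GC boxes 118 and 105 bases before the start, a CRE half-site at 88, a CCAAT box at 70 and a TATA box match on the opposite strand at 188. Odc1 held GC boxes at 173, 51 and 23 bases and a CRE half-site at 14. No matches overlapped. A GC box was present in 32.7% and a CRE half-site in 17.8% of 32851 RefSeq promoters over 250 bases. Over the first 185 of those bases, the length shown for Odc1, the shares were 21.8% and 11.1%. The first bases are those farthest from the start, so these shares leave out the bases next to it. A CCAAT box was present in 33.8% and a TATA box in 12.4% over 250 bases. The NF-kB, GAS, AP-1 and E-box letters, found in 3.15%, 7.02%, 6.75% and 6.02% of promoters over 250 bases, were not in these windows. Over the first 185 bases those 4 shares were 2.39%, 5.38%, 5.06% and 3.88%, and the CCAAT and TATA boxes were in 25.9% and 8.55%. A match is a run of letters, not a bound site.

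The counts over the 9 genes that passed the filter are a description. Genotype called 2 higher (Arg1, Slc7a2) and 2 lower (Arg2, Asl) in the labelled knockout, where 4.75% of all genes were higher and 8.72% lower. The median difference was 0.15, against -0.04 for all genes tested. At 1 h of LPS, 2 rose (Gch1, Arg2) and 0 fell, against 3.85% and 6.62% of all genes, with medians of 0.40 and -0.09. At 2 h, 4 rose (Slc7a2, Gch1, Arg2, Odc1) and 2 fell (Arg1, Asl), against 12.0% and 29.8%, with medians of 0.24 and -0.16. At 4 h, Slc7a2 and Gch1 rose and Arg1 and Asl fell, against 14.4% and 29.4%. Nos2 was also called higher, but it entered the fit only through its 4 h arrays and is not read against these shares. The medians at 4 h were 0.23 and -0.12. The comparisons with 0 h share their 0 h arrays.

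Between 1 h and 2 h, Slc7a2 and Gch1 rose and Arg1 fell, against 7.71% of all genes higher and 14.6% lower. Between 2 h and 4 h, Arg2 and Arg1 fell, against 9.72% of all genes lower and 11.3% higher, and Nos2 was again called higher through its 4 h arrays. The interaction fit asks whether the genotypes differ more or less with LPS, at 1, 2 and 4 h together, than without. It called 0 of the 9 and 0 of the 12540 genes (0%) in limma, of which 434 had an unadjusted p under 0.05. A trended, robust variance called 15 genes, none of the 9 among them. Wild-type arrays all lay above the knockout-labelled ones for 4.01% of all genes and for none of the 9.

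**Figure D4:**
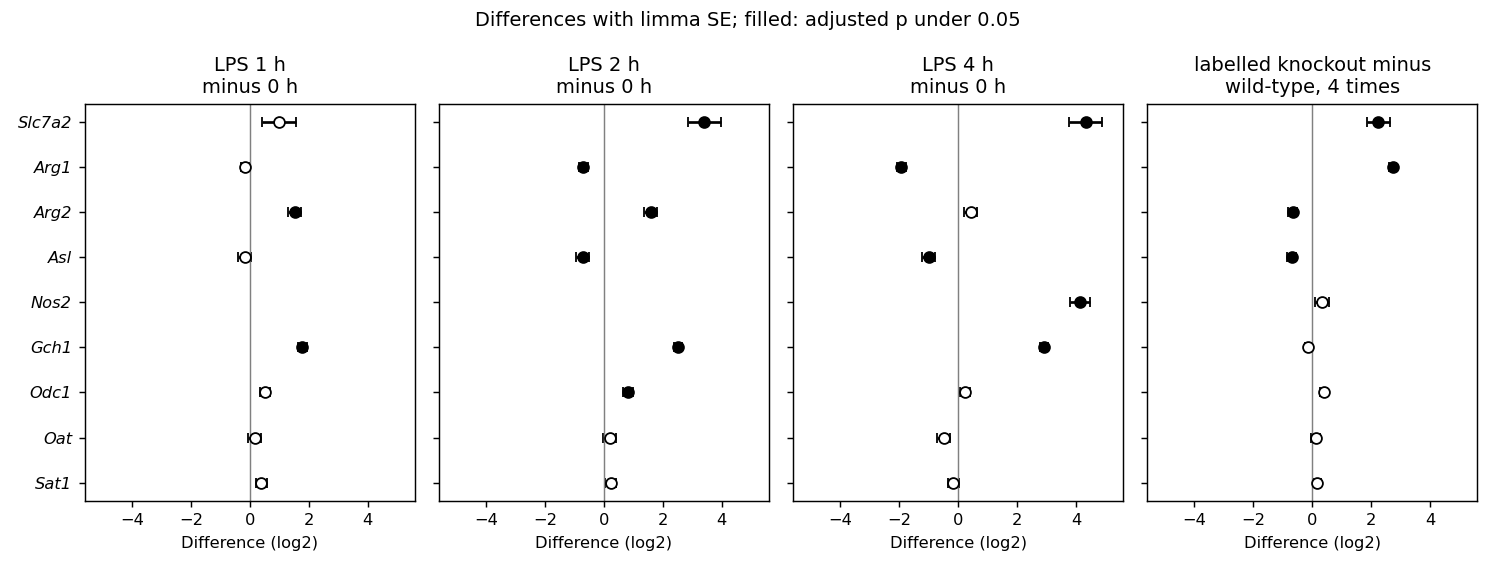
Difference (log2) with limma's SE for 9 genes at 1, 2 and 4 h of LPS against 0 h and between genotypes; filled points have an adjusted p under 0.05, and Nos2 is left out at 1 and 2 h, where all arrays were at background. Slc7a2 and Gch1 were raised at 4 h and Arg1 and Asl lowered; the 4 h difference of Nos2 is set against arrays at background.

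The counts of rising and falling genes over the whole array depended on the scaling and on single arrays. The usual split at 4 h was 1809 higher and 3689 lower, which became 3042 and 2630 after centring on housekeeping genes. At 2 h it was 1499 and 3740, then 2293 and 2803 with that centring and 1882 and 2871 with cyclic loess. At 1 h it was 483 and 830, then 559 and 493 with the centring and 545 and 544 with cyclic loess. For genotype it was 596 and 1094, then 534 and 1452 with the centring and 721 and 830 with cyclic loess. Leaving out either 0 h array gave 254 higher and 343 lower for genotype, either 2 h array 284 and 416, and either 4 h array 388 and 554. At 1 h the split was 289 and 165 without wild-type 0 h, 292 and 209 without wild-type 1 h, 302 and 257 without knockout-labelled 0 h, and 342 and 468 without knockout-labelled 1 h. At 2 h it was 943 and 2198 without wild-type 0 h, 1005 and 2370 without knockout-labelled 0 h, and 993 and 2213 without knockout-labelled 2 h. For 2 h against 1 h, the 2794 called became 1721 without wild-type 1 h, 1602 without wild-type 2 h, 1305 without knockout-labelled 1 h and 1201 without knockout-labelled 2 h. For 4 h against 2 h, the 2631 called became 1492, 1331, 1556 and 1555 without wild-type 2 h, knockout-labelled 2 h, wild-type 4 h and knockout-labelled 4 h.

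Of 67 other genes of these pathways, 48 were measured. At 4 h of LPS 4 rose, 21 fell (43.8% of them, where 29.4% of all genes fell and 14.4% rose) and 23 were not called, with a median of -0.30. With centring on housekeeping genes 7 rose and 16 fell, where 2630 of all 12710 genes fell. With cyclic loess 6 rose and 18 of 47 fell, where 3059 of all 12414 genes fell. The count of 21 was also lower when any array of 0 h or 4 h was left out. At 2 h 2 rose and 18 fell (37.5%, where 29.8% of all genes fell), with a median of -0.20. The 18 became 9 with that centring, 10 of 47 with cyclic loess, 5 without wild-type 0 h, 8 without knockout-labelled 0 h, 10 without wild-type 2 h and 6 without knockout-labelled 2 h. At 1 h 1 rose and 1 fell. Of 10 measured transporters of arginine and ornithine, 2 rose (Slc7a7 and Slc3a2) and 3 fell (Slc7a6, Slc25a15 and Slc38a9) at 4 h. Of 5 genes of the urea cycle and arginine entry list, Slc25a12 rose and Slc25a13 fell, both mitochondrial aspartate-glutamate carriers. Of 7 synthases and regulators of nitric oxide synthesis, 0 rose and 3 fell (Nosip, Nostrin and Dynll1). In the remainder of the tetrahydrobiopterin pathway, which Gch1 opens, 0 of 5 rose and 4 fell at 4 h (Pts, Spr, Qdpr and Pcbd2), with a median of -0.85. Of 13 polyamine genes 1 rose (Smox) and 5 fell (Atp13a2, Atp13a3, Azin1, Eif5a2 and Srm). Of 8 genes of the proline, glutamate and creatine arms 0 rose and 5 fell (Glul, Slc6a8, Ckb, Prodh and Aldh18a1).

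Smox encodes spermine oxidase. It gave 5.07, 6.03, 7.64 and 6.88 in wild-type cells and 4.64, 6.17, 7.84 and 6.96 in the labelled knockout. It was raised by 1.24 at 1 h (adjusted p = 0.0079), 2.88 at 2 h (adjusted p = 0.00011) and 2.06 at 4 h (adjusted p = 0.000206), and peaked at 2 h in both genotypes. Atp13a2, a lysosomal polyamine exporter, read 10.04, 9.61, 8.63 and 7.52, and 9.81, 9.21, 8.26 and 6.94. Its 4 h difference was -2.70 (SE 0.12, adjusted p = 2.5e-05). Glul, glutamine synthetase, went from 12.13 at 0 h to 10.24 at 4 h in wild-type cells and from 11.996 to 10.36 in knockout-labelled cells (-1.76, SE 0.12, adjusted p = 9.8e-05). Slc6a8, the creatine transporter, went from 9.59 to 8.06 and from 8.92 to 7.39 (-1.53, SE 0.12, adjusted p = 0.00016). These 4 h calls held in all 16 alternatives, or for Glul in the 15 that gave it a value.

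Between genotypes 0 of the 48 were higher and 6 lower in the labelled knockout (12.5%, near the 8.72% of all genes that were lower), with a median of -0.09. Besides those described next, these were Gamt and Slc25a12. Ckb, the brain type creatine kinase, read 8.34, 8.26, 7.84 and 7.11 in wild-type and 7.51, 7.51, 6.91 and 6.21 in knockout-labelled cells (-0.86, SE 0.08, adjusted p = 0.00186). Slc6a8 was lower by 0.70 on average (-0.70, SE 0.09, adjusted p = 0.00542). Mtap, which recycles the by-product of polyamine synthesis, differed by -0.40 (SE 0.07, adjusted p = 0.0215), and Atp13a2 by -0.40 (SE 0.09, adjusted p = 0.0345). The Mtap call was lost when any one array was left out (adjusted p up to 0.0870), and that of Atp13a2 was kept in 6 of 16 alternatives. The count of 6 became 2 to 3 when 1 array was left out.

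**Figure D5:**
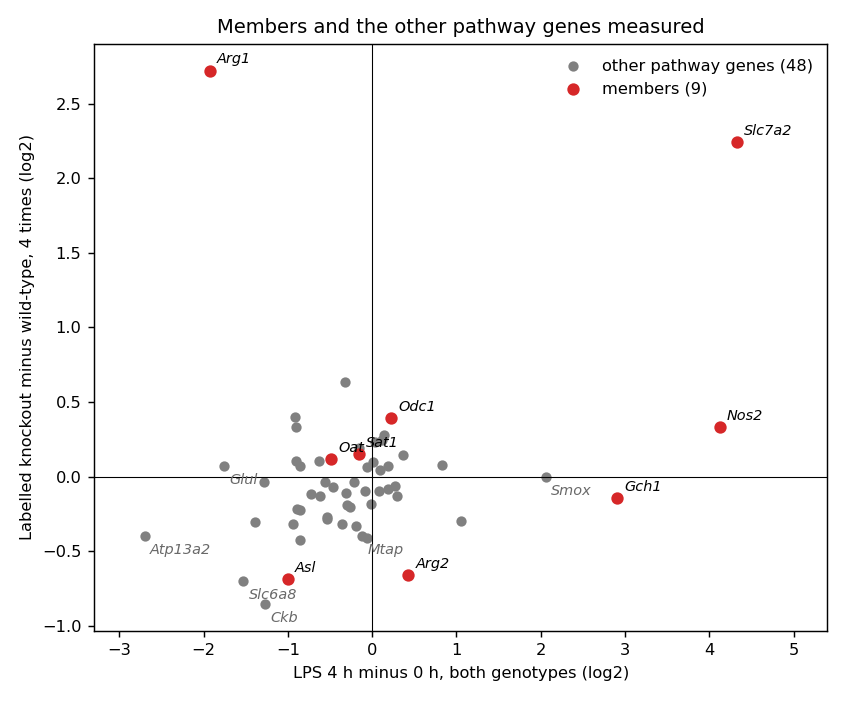
Labelled knockout minus wild-type over the 4 times against LPS 4 h minus 0 h (both log2, limma) for 9 genes of the arginine, nitric oxide and polyamine set (red) and 48 other pathway genes (grey). Arg1 and Slc7a2 stand high on the genotype axis, on opposite sides of 0 on the LPS axis; Slc7a2, Nos2 and Gch1 lie far to the right.

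The genes whose course over the 8 arrays was most like that of Arg1, each centred on its own mean, were Alox15 (root mean square difference 0.35), Ank2 (0.40), Hgsnat (0.46), Serpinb1a (0.49) and Selp (0.51). Alox15 and Selp are also on the list of resident peritoneal macrophage markers. Alox15, a lipoxygenase, read 5.30, 4.32, 4.93 and 3.88 in wild-type and 8.18, 7.98, 7.73 and 6.07 in knockout-labelled cells. Those most like Nos2 were Uba7 (0.39), 1600014C10Rik (0.44), Snn (0.51), Parp11 (0.52) and 4933412E12Rik (0.56). Uba7, which activates the ubiquitin-like protein ISG15, read 5.62, 4.91, 5.11 and 8.67, and 5.41, 5.57, 5.20 and 9.05. The likeness describes these 8 arrays, and for Nos2 it rests on the 4 h arrays.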

How the data were processed

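The deposited table holds log2 values made by the authors with RMA, per the submitters' processing notes. RMA corrects background, quantile-normalizes the arrays and summarises each probe set, so a change in total mRNA would not be seen. No source used here gives its version. RNA was Trizol-extracted and amplified to biotinylated cRNA with a NuGEN Ovation kit, per the labels' protocols. Of 45101 probe sets, 34958 had 1 symbol, 932 several and 9211 none; 34741 single-symbol ones matched RefSeq (GRCm38.p6) by Entrez identifier, and 0 symbols changed. The only multi-symbol probe set naming one of the 10 genes, Ass1, was not used.

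A gene was its single-symbol probe set of highest mean, kept where its second-highest array reached 3.16, the median of all values. limma 3.58.1 (R 4.3.3; lmFit and eBayes) fitted genotype plus time over 12540 genes, with 3 residual degrees of freedom, and genotype by LPS with 2. The number of arrays limits the precision. No spread between replicates enters the p-values. Those of the additive fit rest on departures from a constant genotype difference, which may be technical. The fits were tested on simulated data. Alternatives were cyclic loess, centring on housekeeping genes, other filters, other probe set rules, a trended and robust variance, and leaving out each array.

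Named were all 10 genes, Zc3h12a, the 4 other pathway genes of smallest p among those called, for genotype and for 4 h, and the 5 nearest profiles to Arg1 and Nos2. Other pathway genes named beside a count were named after their values were seen. The genes, lists and tests were chosen with earlier results of these data known.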

Additional observations from a re-analysis of the deposited data

How the results depend on the processing

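The count of genes called among the 9 changed with single arrays. Leaving out 1 array at a time gave 2 to 3 genes for genotype (4 with all arrays), 1 to 2 at 1 h (2), 3 to 6 at 2 h (6) and 0 to 2 for 2 h against 1 h (3). Over all 12540 genes, genotype called 1690 with all arrays and 597 to 1237 with 1 array left out. The counts over all genes for the LPS times also changed, as given above. For 4 h against 2 h a trended, robust variance called 5 of the 9 genes instead of 3, and 3152 instead of 2631 over all genes. Nos2, called through its 4 h arrays, is among the 3. Of 761 recomputed differences of single genes, 692 kept sign and side of the threshold, 55 kept the sign and lost the call, 2 gained one and 12 changed sign. The sign changes were all of uncalled differences: Gch1 between genotypes (0.0078 with the mean of all probe sets), Sat1 at 4 h (0.056 with housekeeping centring), and others when 1 array was left out. With 1 array out, the Oat genotype difference ran from -0.033 to 0.24. At 1 h, Arg1 ran from -0.37 to 0.056, Asl from -0.46 to 0.12 and Oat from -0.085 to 0.43. At 2 h Oat ran from -0.094 to 0.50, and at 4 h Odc1 ran from -0.017 to 0.47 and Sat1 from -0.35 to 0.033. The causes were not tested. Housekeeping centring moved the median of all genes from -0.16 to 0.01 at 2 h and from -0.12 to 0.12 at 4 h. The interaction could not be fitted without an array of 0 h. Time is a term of the additive fit, so genotypes were compared within times. By replicate number, no paired analysis was possible because each group holds replicate 1 alone. The alternatives for the other pathway genes were chosen after seeing the data. Nos2 before 4 h and the single-symbol Ass1 probe set are limited by signal near background.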
